A study of Mus musculus with 4 samples.

Results

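The transcripts described here are Chchd10 and its relatives in the CHCHD family, together with Immt, the core gene of the complex that 2 of these relatives belong to. CHCHD proteins are small proteins with paired cysteine motifs that are held mostly in the mitochondrial intermembrane space. They are drawn in and folded by an oxidative import route that forms disulfide bonds, and they serve in the folds of the inner membrane (cristae), in the assembly of respiratory complex IV and in the mitochondrial ribosome. Members were all probe sets (groups of short oligonucleotides that report on a transcript) whose annotation names 1 of Chchd10, Chchd1, Chchd2, Chchd3, Chchd5, Chchd6, Chchd7 and Immt and no other gene. This gave 17 of the 45037 probe sets that are not array controls, for 7 of the 8 genes. Chchd2 had none of its own, since the 2 probe sets that name it also name the pseudogene Chchd2-ps and 1 of these Zbed5 too.

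The knockout mice carried floxed Yy1 alleles (YY1f/f) and Vil-Cre-ERT2, a tamoxifen-activated Cre recombinase under the Villin promoter, which is active in gut epithelium, on a strain labelled C57BL/6J enriched. The other group was labelled only as control on the same strain. The treatment label, shared by all arrays, names tamoxifen for 4 days, and it is not clear from it whether the controls had tamoxifen or the Cre transgene, so effects of either one and of losing Yy1 cannot be told apart. RNA came from crypts of the jejunum, the pits of the small intestinal lining that hold stem cells and dividing progeny, with 2 arrays per group called biological replicates. The sources used here give neither age nor how many mice went into an array.

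Yy1, which encodes a zinc finger transcription factor, checks the labels: its 4 probe sets read 55.0 to 142 in the knockout arrays, against 175 to 1681 in the control arrays. Median intensities of the 4 arrays lay between 139 and 143, and the median of 27 control probe sets for Bacillus genes, a measure of background, between 31.9 and 35.6. Crypt cell markers such as Olfm4 were bright in both groups. The stem cell marker Lgr5 was not, as it read 60 to 69, near the muscle gene Myh2 at 52 to 63. Of all genes 24.4% were called. The lists of enterocyte, cycling-cell, and Paneth and goblet cell markers lay above that share. Those of stem, mesenchymal, immune, and muscle and neuron markers lay under it. The summed intensity of 18 enterocyte markers was 57739 and 83107 in the knockout arrays, against 116214 and 113678 in the control arrays, with 13 of 18 called lower. That of 14 cycling-cell markers was 27863 and 26793 in the knockout arrays, against 18038 and 18360 in the control arrays, with 12 called higher. The sum of 8 stem cell markers was 8850 to 9619 in the knockout arrays, against 11450 to 11640 in the control arrays, with 1 called lower. That gene, Olfm4, made most of the difference, with 3497 ± 234 in the knockout and 5371 ± 130 in the control (SD, n = 2 each). For 10 Paneth and goblet cell markers it was 69625 to 77597 in the knockout arrays and 79068 to 82978 in the control arrays, with 1 called higher and 2 lower. The sum of 11 mesenchymal markers was 1465 to 1622 in the knockout arrays and 1675 to 1843 in the control arrays, with 2 called lower. For 9 immune markers it was 8525 to 9377 in the knockout arrays and 9143 to 9492 in the control arrays, with 2 called lower. Lyz2 made most of this sum in both groups, so the sum says little of the other markers. Those called lower were Ptprc (293 and 349 in the knockout arrays, 410 and 458 in the control arrays) and Cd3g (200 and 228, against 367 and 342). Cd8a and Csf1r were not lower, and the median log2 difference of the 9 was -0.05. For 11 muscle and neuron markers the sum was 1146 to 1219 in the knockout arrays and 1102 to 1107 in the control arrays, with 1 called higher. Of all these markers, the muscle gene Myh1 alone was at or under the Bacillus median on all 4 arrays. As the other muscle and neuron genes were not, a value above this median does not show that a gene is expressed. For Gapdh, the array's control probe sets gave a log2 signal at the 3′ end above that at the 5′ end, a sign of RNA quality, by 1.71 and 1.65 in the knockout arrays, against 1.44 and 1.40 in the control arrays. For Actb the groups were closer, with 0.33 and 0.29 in the knockout arrays, against 0.28 and 0.24 in the control arrays. The part of cell make-up and of RNA quality in the results below was not tested, and fewer cells of a type cannot be told apart from less RNA per cell.

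Intensities are linear values as deposited, and a fold is the ratio of the group means of these, with nothing added. A log2 difference is knockout minus control on log2(intensity + 16), given ± the standard error (SE) of a limma fit over all probe sets, and a group mean ± SD, each with n = 2 arrays per group. A probe set or gene was called at a Benjamini-Hochberg adjusted p under 0.05 in limma over all of them. Chchd10 was chosen by its lower intensity in these same knockout arrays and the others by family name, so the values of the members in this contrast are a description, and no p-value is given for them.

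Of the 17 member probe sets, 10 were called, 5 higher and 5 lower, where 20.0% of all probe sets were called (10.9% higher and 9.09% lower). Dim probe sets are part of these shares. Of all probe sets 4921 were called higher and 4092 lower, and with the filter on low values still 4695 higher and 3600 lower. Shares among probe sets of like intensity were not computed. Of the 5 lower, 2 were of Chchd10, whose fall chose the set, and 3 were of Chchd7. The groups did not overlap in 15 of the 17, with the knockout arrays above in 10 and below in 5, where 59.9% of all probe sets did not overlap (31.5% with the knockout above and 28.4% with it below). The members split by gene: Chchd10 and Chchd7 were lower in the knockout, Chchd6, Chchd1 and Immt were higher, and no probe set of Chchd3 or Chchd5 was called. The median log2 difference of the 16 member probe sets above the Bacillus medians was 0.20, and that of all probe sets was 0.01. The members were called in 7 probe sets without knockout replicate 1, control replicate 1 or control replicate 2, and in 8 without knockout replicate 2. The calls of Chchd10, Chchd6 and Chchd7 were present in all of these, and those of Immt in none.

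**Figure D1:**
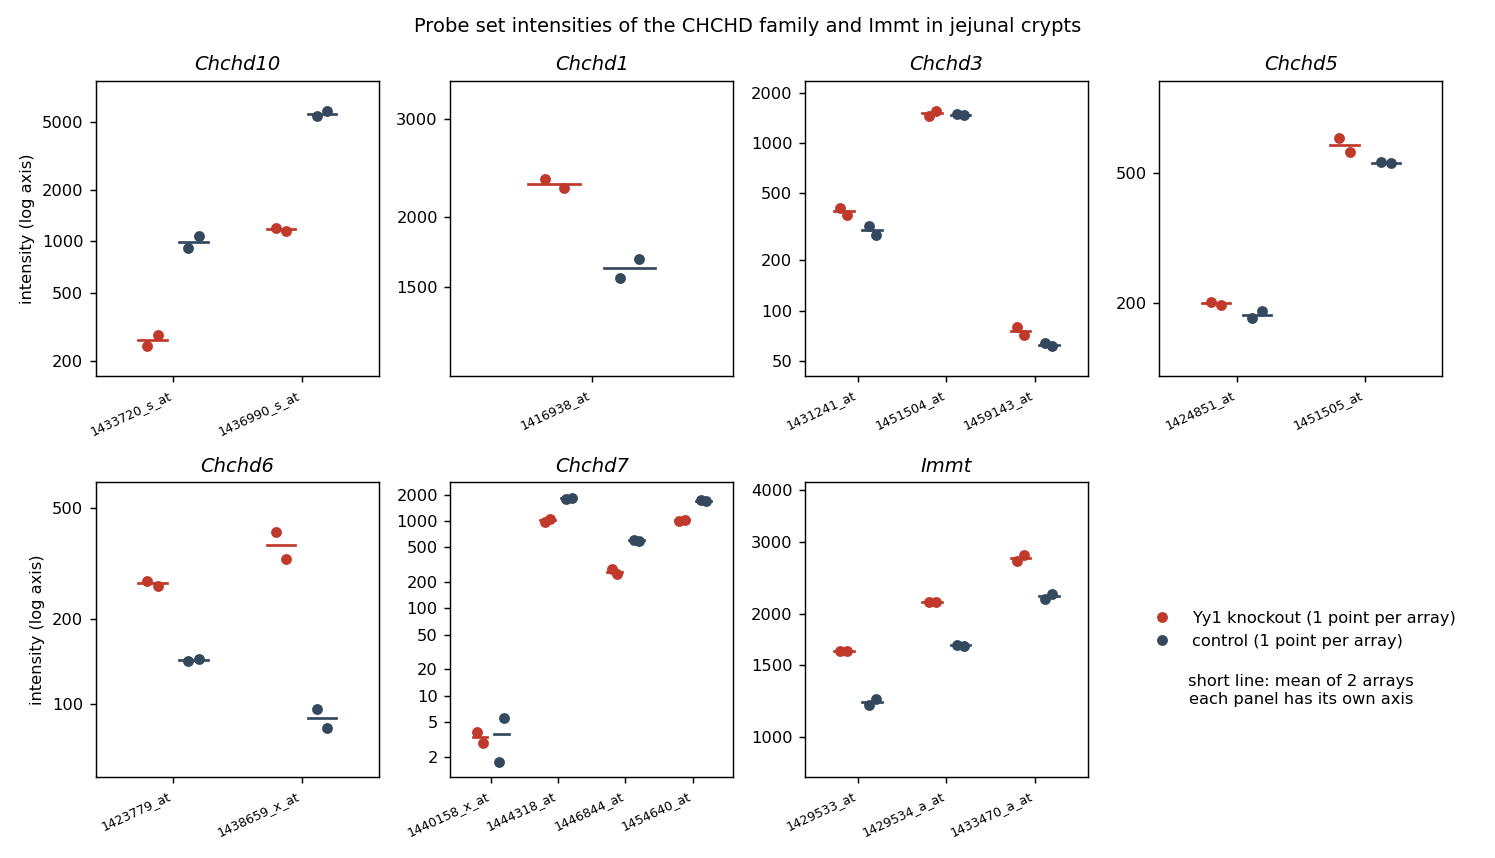
Intensity of each member probe set on a log axis, with 1 point per array, the Yy1 knockout arrays (red) left of the control arrays (dark blue) and a short line at the mean of the 2 arrays. Knockout points lie below control points for both Chchd10 probe sets and for 3 of the 4 Chchd7 probe sets. They lie above control points for Chchd1, Chchd5, Chchd6 and Immt, and for the Chchd3 probe sets 1431241_at and 1459143_at. Heights of different probe sets are not comparable.

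Chchd10 encodes an intermembrane space protein that is closely related to CHCHD2 and is known in humans for mutations in motor neuron and muscle disease. Its brighter probe set, 1436990_s_at, read 1206 and 1147 in the knockout arrays, against 5403 and 5779 in the control arrays. The knockout arrays were thus near each other and far below both control arrays. Group means were 1176 ± 41.7 in the knockout and 5591 ± 266 in the control, 4.75-fold lower in the knockout, with a log2 difference of -2.23 ± 0.10. The dimmer probe set, 1433720_s_at, read 246 and 284 in the knockout arrays, against 911 and 1082 in the control arrays, and its log2 difference was -1.85 ± 0.13. Both probe sets placed the knockout arrays below the controls without overlap. Both have the suffix _s_at, which in the array maker's naming marks probe sets that can match more than 1 transcript, and the annotation names no gene other than Chchd10 for them. By its log2 difference Chchd10 stood at place 63 from the lowest of 18193 genes.

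With 1 array left out, the log2 difference of the brighter Chchd10 probe set ranged from -2.28 to -2.18.

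The promoter of Chchd10 is shown because YY1 binds promoters directly and Chchd10 is the member with the largest difference. RefSeq promoter windows hold 250 bases before to 50 bases after the annotated start, in the build GRCm38.p6, and 6 of the 8 genes had one. The windows of Chchd10 (chr10:75932880-75933179, plus strand) and of Chchd6 (chr6:89595603-89595902, minus strand), the member with the largest rise, read as follows, 5′ to 3′ on the strand of the gene, with matches to YY1 motif letters in capitals.
Chchd10: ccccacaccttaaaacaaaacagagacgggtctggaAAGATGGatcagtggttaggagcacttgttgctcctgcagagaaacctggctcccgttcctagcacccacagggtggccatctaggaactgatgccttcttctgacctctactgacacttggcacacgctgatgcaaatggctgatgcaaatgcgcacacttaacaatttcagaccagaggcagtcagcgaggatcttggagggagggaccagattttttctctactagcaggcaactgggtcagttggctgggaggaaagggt
Chchd6: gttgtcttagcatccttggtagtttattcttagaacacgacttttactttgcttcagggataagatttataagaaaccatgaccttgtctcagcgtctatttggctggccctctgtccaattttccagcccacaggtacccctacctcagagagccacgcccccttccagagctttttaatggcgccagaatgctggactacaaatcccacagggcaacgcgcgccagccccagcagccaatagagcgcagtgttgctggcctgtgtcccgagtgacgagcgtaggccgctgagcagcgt
The letters searched were CCATNTT and CCGCCAT on both strands, which share the bases CCAT and can overlap each other. The Chchd10 window held 1 match to CCATNTT, on the strand opposite to the gene, beginning 214 bases before the start. The windows of Chchd1, Chchd3, Chchd5, Chchd6 and Immt held none of these letters. Among 32851 mouse promoter windows of the same length, 16.1% held CCATNTT, 4.05% held CCGCCAT and 18.4% held either. Repeats were not masked, and a match of letters describes the sequence only.

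Chchd7, whose relative in yeast takes part in complex IV assembly, was the other lower gene. Probe set 1444318_at read 984 and 1060 in the knockout arrays, against 1797 and 1847 in the control arrays, a log2 difference of -0.83 ± 0.10. Probe set 1454640_at read 1013 and 1041 in the knockout arrays, against 1757 and 1680 in the control arrays (-0.73 ± 0.10). Probe set 1446844_at read 280 and 245 in the knockout arrays, against 611 and 593 in the control arrays (-1.15 ± 0.11). The 3 probe sets thus had the same direction, each without overlap of the groups. The remaining probe set, 1440158_x_at, read between 1.74 and 5.52 on all arrays, under the Bacillus medians, and its groups overlapped. No fold is given for it.

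Chchd6, Chchd3 and Immt encode proteins of the mitochondrial contact site and cristae organising system (MICOS), the complex that holds the narrow necks of the cristae and ties the inner to the outer membrane. Immt encodes mitofilin, the membrane-anchored core of the complex, and the CHCHD3 and CHCHD6 proteins bind it from the intermembrane space. By RefSeq, all 3 genes lie on chromosome 6.

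Chchd6 differed most of the higher members. Probe set 1423779_at read 274 and 264 in the knockout arrays, against 143 and 144 in the control arrays, 1.87-fold higher in the knockout, with a log2 difference of 0.84 ± 0.10. Probe set 1438659_x_at read 409 and 329 in the knockout arrays, against 96.1 and 82.2 in the control arrays, 4.14-fold higher in the knockout (1.87 ± 0.13). The groups did not overlap on either, but the size of the rise differed between the 2 probe sets of the gene. The suffix _x_at of the second marks, in the maker's naming, probes that may also bind other transcripts. Control values of this second probe set lay under the median intensity of their arrays.

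Immt was higher by a smaller and even amount on its 3 probe sets. Probe set 1429533_at read 1620 and 1627 in the knockout arrays, against 1197 and 1241 in the control arrays, a log2 difference of 0.41 ± 0.10. Probe set 1429534_a_at read 2132 and 2142 in the knockout arrays, against 1683 and 1673 in the control arrays (0.35 ± 0.10). Probe set 1433470_a_at read 2697 and 2789 in the knockout arrays, against 2179 and 2235 in the control arrays (0.31 ± 0.10), and it was not called. All 3 were without overlap of the groups, and the log2 difference of the last ranged from 0.29 to 0.34 with 1 array left out. In each of those 4 fits, and with a pseudocount of 1 in place of 16, no Immt probe set was called. Probe set 1433470_a_at was called with a pseudocount of 64, a trended and robust prior or a filter on low values.

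For Chchd3 the 3 probe sets were not alike. Probe set 1451504_at read 1441 and 1561 in the knockout arrays, against 1493 and 1462 in the control arrays, so that the groups overlapped (0.02 ± 0.10, and -0.04 without knockout replicate 2). Probe set 1431241_at read 408 and 373 in the knockout arrays, against 321 and 284 in the control arrays (0.35 ± 0.11). Probe set 1459143_at, near the background, read 79.8 and 71.3 in the knockout arrays, against 63.9 and 61.2 in the control arrays (0.22 ± 0.10). None of the 3 was called, although the knockout arrays lay above the controls on the last 2 named. Probe set 1431241_at was called with a pseudocount of 64, a filter on low values or the replicate number as a block.

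Chchd1, a protein of the small subunit of the mitochondrial ribosome, had 1 probe set, 1416938_at. It read 2338 and 2250 in the knockout arrays, against 1555 and 1681 in the control arrays, 1.42-fold higher in the knockout (0.50 ± 0.10). The groups did not overlap. Its call was lost without knockout replicate 1, control replicate 1 or control replicate 2, where the log2 difference was between 0.44 and 0.56.

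Chchd5, an intermembrane space member of the family, was close between the groups. Probe set 1451505_at read 640 and 581 in the knockout arrays, against 541 and 537 in the control arrays (0.17 ± 0.10). Probe set 1424851_at read 202 and 198 in the knockout arrays, against 179 and 189 in the control arrays (0.11 ± 0.10). Neither was called, and on both the knockout arrays lay above the controls.

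For Chchd2, whose protein is the nearest relative of CHCHD10 and binds complex IV, the shared probe sets cannot tell the gene from its pseudogene. Probe set 1428161_a_at read 8356 and 8100 in the knockout arrays, against 8466 and 8011 in the control arrays. Probe set 1450815_s_at, which also names Zbed5, read 1368 and 1558 in the knockout arrays, against 1135 and 1216 in the control arrays. The groups overlapped on the first and not on the second, and neither was called.

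**Figure D2:**
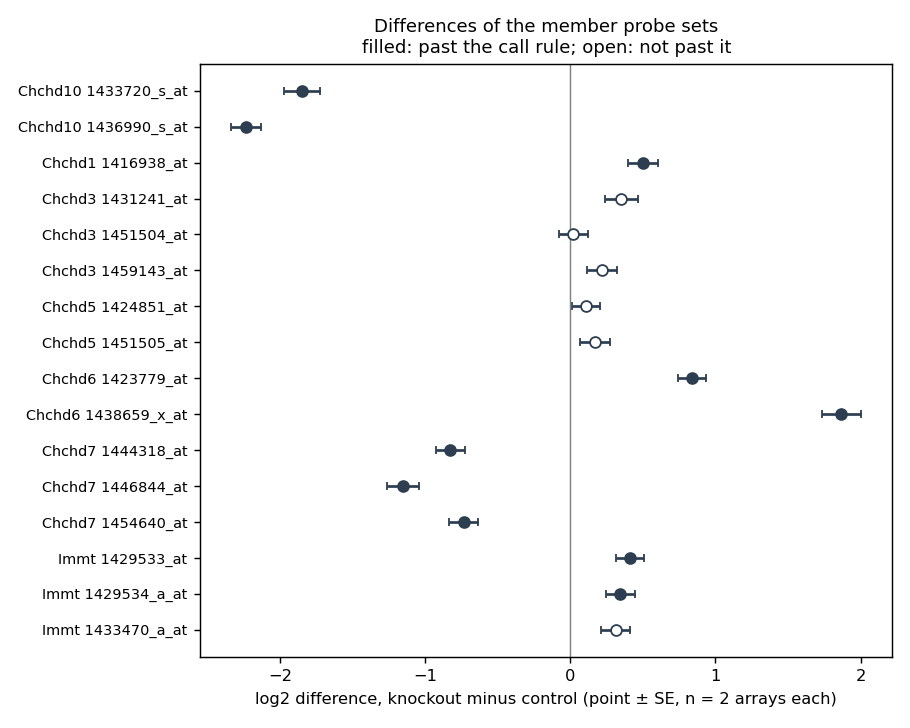
Log2 difference, knockout minus control, of the 16 member probe sets above the Bacillus medians, as points ± SE (n = 2 arrays each), filled where called and open where not. The Chchd10 and Chchd7 points lie left of 0, between -2.23 and -0.73, and the Chchd6 points lie farthest to the right, at 0.84 and 1.87.

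The partners of the members were taken from 3 lists of genes that left the members out. The first held other subunits of MICOS, parts of the larger bridge it forms with the outer membrane, and the matrix chaperone gene Hspa9. Of its 11 genes, all measured, 3 rose and 1 fell, where 13.4% of all genes were called higher and 11.0% lower (24.4% in all). The median log2 difference was 0.12, and that of all 18193 genes was 0.01. Dnajc11, a J-domain protein of the bridge, had 523 and 432 in the knockout arrays, against 294 and 268 in the control arrays (log2 0.73 ± 0.12, limma adjusted p = 0.00625). Armc1, which is found with the bridge, rose by 0.41 ± 0.09 (limma adjusted p = 0.0194), and Hspa9, the matrix chaperone mortalin, rose by 0.39 ± 0.09 (limma adjusted p = 0.0244). None of these 3 genes encodes a MICOS subunit. Apool, a MICOS subunit that binds the lipid cardiolipin, fell: it had 626 and 696 in the knockout arrays, against 989 and 946 in the control arrays (-0.54 ± 0.10, limma adjusted p = 0.00984). These values are of 1 of its 3 probe sets, and the others were not called. The subunit Apoo did not pass (-0.16 ± 0.10, limma adjusted p = 0.314), nor did Samm50, the outer membrane partner of the complex (-0.34 ± 0.10, limma adjusted p = 0.0519). Only 1 gene was called higher without knockout replicate 1, control replicate 1 or control replicate 2, in each of which the calls of Armc1 and Hspa9 were lost, and Apool lost its call without control replicate 1 (limma adjusted p = 0.0667). The calls of Dnajc11, Hspa9 and Apool were also lost when each gene was read by its dimmest probe set.

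The second list held the import route of the intermembrane space and its twin-cysteine clients. Of 27 genes 26 were measured, and of these 9 rose (34.6% called, against 24.4% of all genes and 13.4% called higher), with a median log2 difference of 0.07. The shares of all genes take in dim genes, while most of this list was bright, so they do not show an excess over genes of like intensity. No gene was called lower by limma, and 2 were lower at an unadjusted p under 0.05. The import receptor itself was higher: Chchd4, the oxidoreductase that folds twin-cysteine proteins, had 2209 and 1830 in the knockout arrays, against 1550 and 1341 in the control arrays (log2 0.48 ± 0.13, limma adjusted p = 0.0366). Gfer, which re-oxidises it, rose by 0.46 ± 0.12 (limma adjusted p = 0.0283), and Aifm1, which binds it, by 0.33 ± 0.10 (limma adjusted p = 0.0438). All 3 genes had both knockout arrays above both controls.

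The largest rises of this list were among its clients. Cmc2, a factor of complex IV biogenesis, had 3360 and 3431 in the knockout arrays, against 1979 and 1834 in the control arrays (0.83 ± 0.10, limma adjusted p = 0.00204). Of the 6 small Tim chaperones on the list, which guide membrane proteins across the intermembrane space, 4 rose. Timm10 had 2419 and 2079 in the knockout arrays, against 1318 and 1220 in the control arrays (0.82 ± 0.11, limma adjusted p = 0.00336). Timm9 (0.83 ± 0.14), Timm13 (0.65 ± 0.10) and Timm8a1 (0.45 ± 0.10) also rose, with limma adjusted p between 0.00396 and 0.0191. Timm10b did not pass (0.27 ± 0.10, limma adjusted p = 0.0877). Timm8b had 1120 and 1107 in the knockout arrays, against 1356 and 1417 in the control arrays, and did not pass (-0.31 ± 0.09, limma adjusted p = 0.0528). It was called lower under 5 of the alternatives, both other scalings among them. Ndufs5, a twin-cysteine subunit of complex I, rose by 0.35 ± 0.10 (limma adjusted p = 0.0358). The copper proteins of complex IV assembly did not pass: Cox17 was at 0.02 ± 0.09 (limma adjusted p = 0.914) and Cox19 at -0.23 ± 0.10 (limma adjusted p = 0.151). The number that rose was 4 without knockout replicate 1, control replicate 1 or control replicate 2, and 8 without knockout replicate 2. The calls of Cmc2, Timm9, Timm10 and Timm13 were present in all 4 of these fits, that of Cmc2 was lost with its dimmest probe set, and those of Aifm1 and Ndufs5 were lost in all 4. Of these fits, Chchd4, Gfer and Timm8a1 were called only in the one without knockout replicate 2. With a pseudocount of 1 in place of 16, Chchd4, Aifm1 and Ndufs5 lost their calls. Aifm1 and Ndufs5, which have 1 probe set each, also lost them in the fit that read every gene by its dimmest probe set, where their own values were the same.

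The third list held genes that shape, fuse and divide mitochondrial membranes. Of 26 genes 25 were measured, and of these 5 rose and 1 fell, with a median log2 difference of 0.13. The share called, 24.0%, was near the 24.4% of all genes. Opa1, the dynamin-like protein of inner membrane fusion and cristae, had 1944 and 1995 in the knockout arrays, against 1347 and 1398 in the control arrays (0.52 ± 0.09, limma adjusted p = 0.00866). Oma1, a stress-activated protease that cuts OPA1, rose by 0.60 ± 0.11 (limma adjusted p = 0.00957), while Yme1l1, the other protease of OPA1, did not pass (-0.10 ± 0.10, limma adjusted p = 0.551). Stoml2, a cardiolipin-binding scaffold protein, rose by 0.74 ± 0.10 (limma adjusted p = 0.00328), and C1qbp, a matrix protein, by 0.71 ± 0.10 (limma adjusted p = 0.00339). Dnm1l, the dynamin-like protein of mitochondrial division, rose by 0.53 ± 0.10 (limma adjusted p = 0.00984). Mfn2, an outer membrane fusion protein, had 746 and 660 in the knockout arrays, against 1059 and 1039 in the control arrays (-0.57 ± 0.10, limma adjusted p = 0.00862), and was the gene that fell. The other probe set of Mfn2 was not called. Phb had no probe set of its own here. Without control replicate 1 the list had 3 higher genes, as Opa1 and Dnm1l lost their calls, and Mfn2 lost its call too (limma adjusted p = 0.0550). Without control replicate 2, Oma1 lost its call (limma adjusted p = 0.0632), and Mfn2 and Clpb were called lower, 2 genes in all; Clpb is named after its values were seen. Read by their dimmest probe sets, Opa1, Dnm1l and Mfn2 lost their calls.

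**Figure D3:**
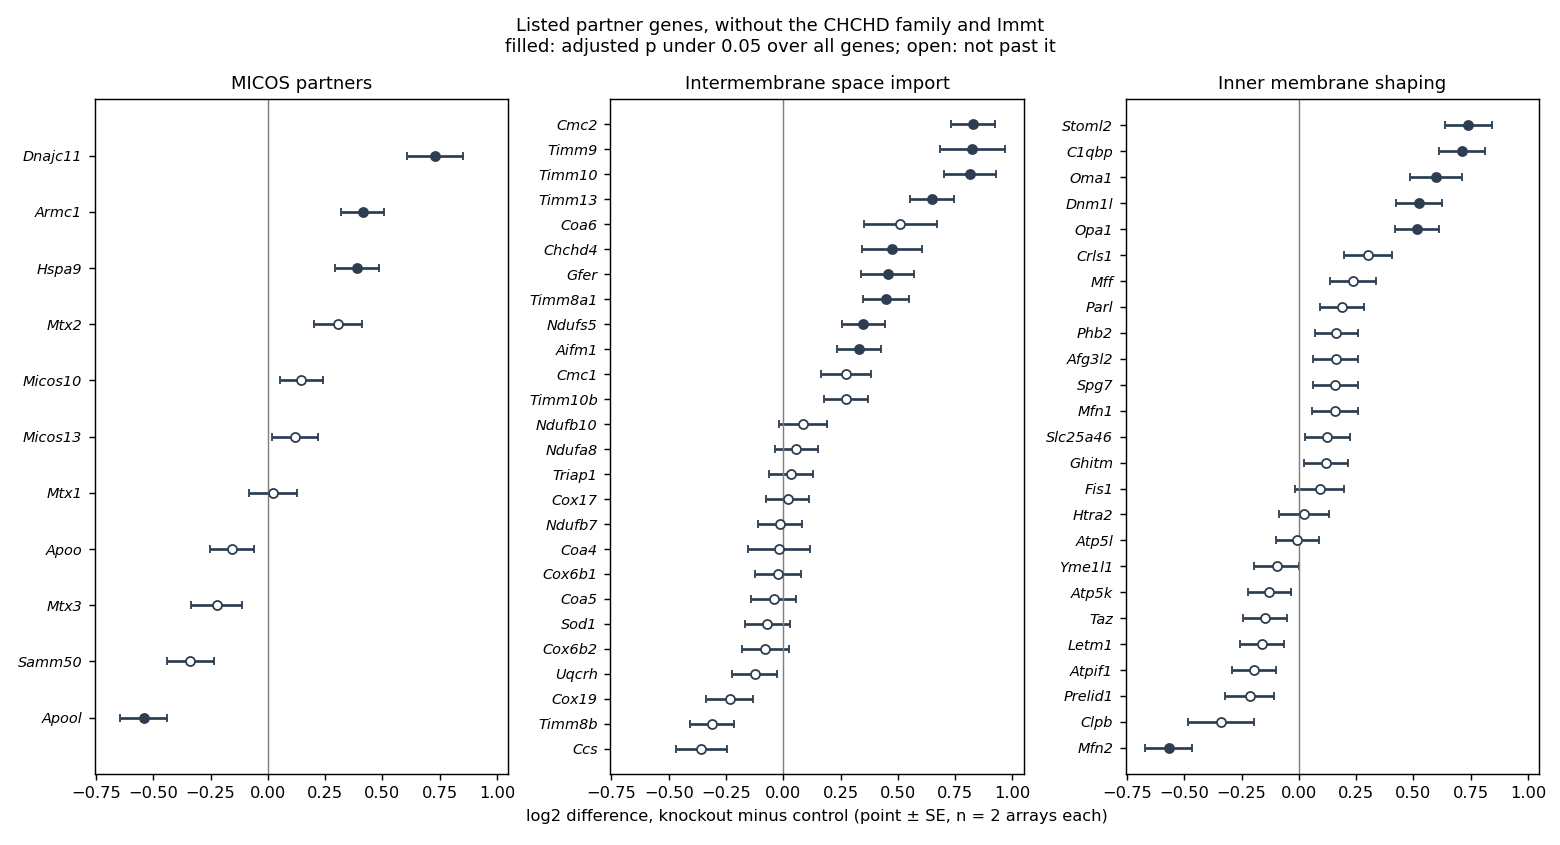
Log2 difference, knockout minus control, of each measured gene of the 3 partner lists, as points ± SE (n = 2 arrays each), filled where the limma adjusted p over all genes was under 0.05. Most filled points lie right of 0 and up to 0.83, and the filled points left of 0 are Apool at -0.54 and Mfn2 at -0.57.

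Position on the chromosome was also set beside the members, with neighbours taken as the next protein-coding gene on either side in RefSeq. Immt lies between Mrpl35, a protein of the large subunit of the mitochondrial ribosome, and Ptcd3, a protein of its small subunit, and both rose. Ptcd3 had 2157 and 1883 in the knockout arrays, against 1020 and 1028 in the control arrays (0.97 ± 0.11, limma adjusted p = 0.00164), and Mrpl35 had 1283 and 1301 in the knockout arrays, against 869 and 829 in the control arrays (0.60 ± 0.10, limma adjusted p = 0.00536). Mmp11, the neighbour of Chchd10 that was measured, was near background and did not pass (0.16 ± 0.16, limma adjusted p = 0.542). The neighbours of Chchd7, Plag1 and Sdr16c5, did not pass either, with a limma adjusted p of 0.796 for Plag1 and 0.172 for Sdr16c5. Plag1 was dim, and Sdr16c5 read 17.6 to 27.0, under the Bacillus medians on all 4 arrays. Txnrd3 beside Chchd6 did not pass (0.31 ± 0.12, limma adjusted p = 0.106), nor did the neighbours Fut11 and Zswim8 of Chchd1, Plxna4 and Exoc4 of Chchd3, and Polr1b and Slc20a1 of Chchd5 (limma adjusted p between 0.101 and 0.473). Beside Chchd2, the dim gene Phkg1 fell (-0.57 ± 0.12, limma adjusted p = 0.0128). Zbed5 read 30.2 to 41.0, near the Bacillus medians, and did not pass (limma adjusted p = 0.180).

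The genes whose pattern was nearest to Chchd10 were found by the root mean square difference over the 4 arrays of log2(intensity + 16) minus the mean of the control arrays, among genes above the median level. They were Slc13a1, a sodium-coupled sulfate carrier (0.07), Plbd1, a phospholipase B-like gene (0.07), Tet2, a dioxygenase that oxidises methylcytosine in DNA (0.11), Pm20d1, an enzyme that makes and breaks N-acyl amino acids (0.13), and Slc36a1, a proton-coupled amino acid carrier (0.14). Slc13a1 had 206 and 186 in the knockout arrays, against 998 and 943 in the control arrays. Tet2 had 174 and 165 in the knockout arrays, against 944 and 966 in the control arrays. As the choice requires, the knockout arrays of all 5 genes lay together and well below the controls. With 4 arrays in 2 groups, such likeness rests mainly on the size of the difference between the groups.

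**Figure D4:**
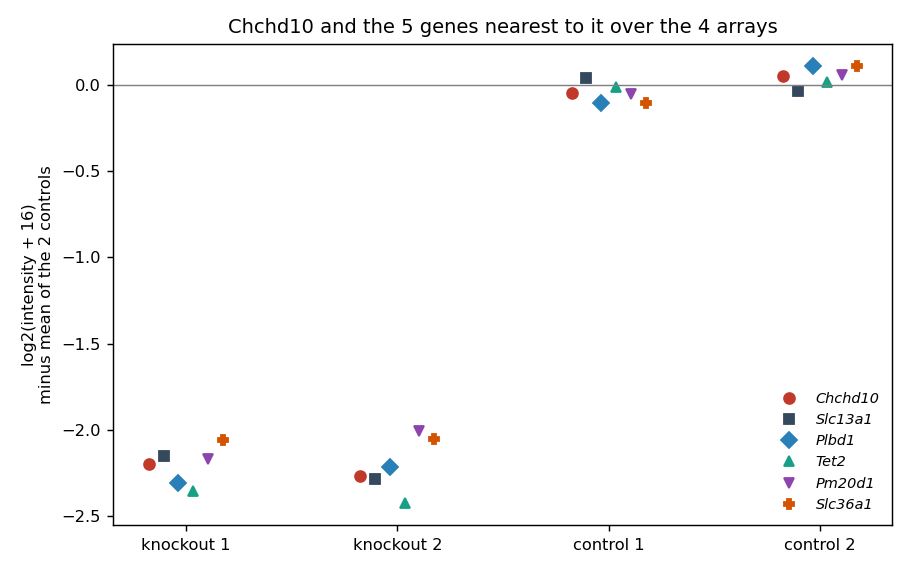
Log2(intensity + 16) of Chchd10 and the 5 genes nearest to it, each minus its mean over the 2 control arrays, with 1 point per gene and array. All 6 genes lie near 0 in the control arrays and lower in both knockout arrays, with log2 differences between -2.39 and -2.05. The 5 were chosen for their likeness to Chchd10 on these same arrays.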

How the data were processed

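Per the labels' protocols, crypts were isolated by EDTA and a 70 um filter, and total RNA (Trizol) was put on Affymetrix arrays with a biotin label. The deposited values are the authors' linear intensity of each probe set. How they were summarised, background-corrected and normalized is not given in the sources used here, and detection calls were not used. A floor of 1 was reached by 16 to 27 probe sets per array. No further scaling was applied. Of 45101 probe sets, 64 array controls were left out of tests.

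Gene names came from the platform's annotation, updated by Entrez ID from RefSeq (GRCm38.p6, for 34741 of 34945 probe sets with 1 gene). A gene was represented by its probe set with the highest mean log2 value. Tests used limma 3.58.1 in R 4.3.3 (lmFit, eBayes, no block) on log2(intensity + 16), over 45037 probe sets for the members (7.34 degrees of freedom) and 18193 genes for the lists (7.05). The fit was tested on simulated data. The Bacillus measure of background was chosen from the values.

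The members and lists were chosen with earlier results of these data known. All members were named. From each of the 3 partner lists, the 6 called genes of lowest p per direction, all called genes where 5 or fewer were called, and 11 fixed genes were named. Of the called import genes, Aifm1 and Ndufs5 fall outside this rule and were named after their values were seen. The same holds for Timm8b, Timm10b, Olfm4, Lyz2, Lgr5, Myh2, Ptprc, Cd3g, Cd8a and Csf1r. Neighbours were taken by position, a choice made after the values were seen. The 2 arrays per group limit the precision of all results. Alternatives were other pseudocounts, scalings, priors, a filter, a replicate block, the dimmest probe set and leaving out each array.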

Additional observations from a re-analysis of the deposited data

How the results depend on the processing

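The log2 difference of the brightest probe set of each member had 1 sign under all 11 alternatives, except for Chchd3 (-0.04 without knockout replicate 2). For Chchd6 it was 0.90 with a pseudocount of 1 and 0.68 with one of 64. Leaving out 1 array gave 7 to 8 called member probe sets, 2056 to 4629 higher and 1949 to 3908 lower probe sets, and 1157 to 2307 higher and 1040 to 2059 lower genes. It gave 1 to 3 higher and 0 to 1 lower MICOS partners, 4 to 8 higher import genes, and 3 to 5 higher and 0 to 2 lower shaping genes. Lower MICOS partners numbered 2 with a pseudocount of 64, median scaling, a trended and robust prior or the filter on low values, and 0 when each gene was read by its dimmest probe set, where 1 was higher. Lower import genes numbered 2 with a pseudocount of 64, 2 with quantile normalization, 1 with median scaling, 1 with the trended prior and 2 with the filter. Shaping genes had 2 lower with the trended prior, and 3 higher and 2 lower with the dimmest probe sets. Fewer arrays leave fewer degrees of freedom; other causes were not tested. With the replicate block, 1 import gene was lower, 11 member probe sets were called, and 2662 genes were higher and 2219 lower. Same-numbered arrays deviated together at r = 0.10 across probe sets, and with 2 pairs the numbers are not shown to pair the arrays. What lies near the Bacillus medians, such as 1 probe set of Chchd7, cannot be compared here.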
